A study of Mus musculus with 12 samples.

Results

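Collagens were examined as a gene family in primary oligodendrocyte precursor cells (OPCs), the glial progenitors that give rise to myelinating oligodendrocytes. The family was defined by symbol, as every row named Col followed by a type number, the letter a and a chain number, and this gave 44 genes of 45563 gene symbols with RNA-seq values. OPCs came from the cortices of pups labeled C57BL/6 (C57BL/6J in the methods) at postnatal days 2 to 5 by the labels and 3 to 5 by the methods, either WT or labeled TNFR2-/-, a germline deletion of TNFR2, which is a receptor for the cytokine TNF. They were selected with beads against PDGFRα, grown for 3 days in vitro and then left non-stimulated (NS) or stimulated for 3 h with a cocktail of TNF, IFNγ and IL1β at 25 ng/mL each (St). The 12 libraries formed 4 groups of 3, namely WT NS and WT St (cultures 2, 3 and 4) and TNFR2-/- NS and TNFR2-/- St (cultures 2, 4 and 5). A germline deletion is not limited to OPCs, so a difference between genotypes could arise in any cell of the culture or before isolation.

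Collagens are trimers of alpha chains that share a Gly-X-Y triple helix. Fibrillar types polymerize outside the cell into fibrils, fibril-associated types sit on the surface of those fibrils, type IV forms the network of basement membranes and type VI forms beaded filaments. In the CNS most collagen lies in the vascular basement membrane and the meninges, and glial cells contact it through integrins, discoidin domain receptors and the adhesion receptor *Adgrg1* (GPR56).

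Values were deposited as FPKM, from which whole read counts were recovered for each gene, and levels are given below as reads for each 1000000 reads of the library (RPM). Library totals, also estimated from the FPKM, ranged from 26886878 to 30335265 read pairs. Differences are log2 fold changes with their standard error (SE) from limma on log2(FPKM + 0.5), with Benjamini-Hochberg adjusted p-values over all 18081 genes that had a mean of at least 0.1 FPKM. A gene was called when its adjusted p was at most 0.05, its change at least 1.5-fold in either direction and its mean at least 1 FPKM. For *Tnfrsf1b*, the gene of TNFR2, the reads were 15, 12 and 24 (WT NS), 145, 61 and 105 (WT St), 322, 346 and 213 (labeled TNFR2-/- NS) and 282, 356 and 290 (labeled TNFR2-/- St). It was thus higher where the label says it was deleted, which goes against the label. The values are per gene and do not separate the disrupted part of the transcript, so they did not check the labels, and every genotype direction below is that of libraries labeled WT and labeled TNFR2-/-. Nothing in the labels says that cultures came from separate animals, so p-values measure the spread between these samples, which may be technical.

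Of the 44 collagen genes, 39 passed the filter and 34 had a mean of at least 10 reads. The 10 below that count were *Col6a5*, *Col6a6*, *Col8a2*, *Col10a1*, *Col13a1*, *Col14a1*, *Col17a1*, *Col24a1*, *Col25a1* and *Col28a1*, for which changes were not detectable at this depth unless large. The divisor behind the FPKM was not the length of the gene. For the 44 collagen genes it lay between 68 and 12209 bases, against annotated exon lengths of 3095 to 15228 bases, and was within 2-fold of that length for 8 of them. A short divisor lifts a gene over 1 FPKM and a long one keeps it below, so 6 genes with at least 10 reads had a mean under 1 FPKM and could not be called (*Col2a1*, *Col3a1*, *Col4a3*, *Col4a4*, *Col6a3* and *Col6a4*), whereas *Col28a1* was above 1 FPKM with 4.17 reads on average. For this reason every comparison was also made with voom on the recovered reads, with both the filter and the call set at a mean of 10 reads. That fit was added after the data were seen.

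The sample labels were checked against cell markers. The 8 OPC markers summed to between 7115 and 9953 RPM in the 12 libraries. Of the mural markers, *Acta2* had 2007 to 25471 reads and *Tagln* 1782 to 14252, while the defining pericyte genes *Rgs5*, *Kcnj8* and *Abcc9* had at most 37, 36 and 3 reads. *Notch3* had 793 to 1904 reads and *Pdgfrb* 12 to 108. Of the 8 fibroblast markers *Fbln1* had 266 to 582 reads, *Ogn* 38 to 87 and *Postn* 8 to 108, while *Dcn*, *Lum*, *Aspn*, *Slc6a13* and *Pi16* had at most 10, 24, 8, 2 and 5. WT culture 3 was often the lowest of WT for collagens, at 23 of 34 genes in NS and 22 of 34 in St. The share of all genes lowest in that culture was not computed. Its summed mural markers were the lowest of WT as well (430 RPM in NS and 534 in St, against up to 1369 and 1239). Most of the NS sum was *Acta2* and *Tagln* (242 and 157 RPM). *Sparc*, which encodes a collagen-binding matrix protein, had 10155 and 12391 reads in WT culture 3 against 25605 to 36204 in the other WT libraries. The lowest mural sums of all were in TNFR2-/- culture 5 (247 RPM in NS and 180 in St). That culture was the lowest of 3 for 9 and 11 of 34 collagen genes and the highest for 14 and 13. In bulk RNA fewer cells of a type and less RNA per cell cannot be told apart.

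Promoter sequence is shown for *Col16a1*, which was called with stimulation in both genotypes, and for the collagen genes with an NF-κB match, because TNF and IL1β act through NF-κB. RefSeq windows on GRCm38.p6, each the 250 bases before a start, were found for 35 of 44 collagen genes (38 windows). The AP-1 site TGANTCA was held by 1 collagen window and by 6.75% of all 32851 promoters, and the NF-κB consensus by 4 and by 3.9%. Both were searched on both strands. The window of *Col16a1* (chr4:130047590-130047839, plus strand) held neither motif and was 75.6% G and C:
Col16a1: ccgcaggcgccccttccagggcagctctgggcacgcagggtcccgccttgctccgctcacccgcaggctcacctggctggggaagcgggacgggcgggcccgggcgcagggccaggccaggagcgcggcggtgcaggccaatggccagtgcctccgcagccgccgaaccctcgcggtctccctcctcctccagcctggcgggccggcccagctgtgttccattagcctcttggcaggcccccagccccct
The 4 NF-κB matches, in capitals, are shown with up to 10 bases on each side. They lay at chr9:106096739-106096768 (*Col6a4*, shown on the minus strand), chr4:63215219-63215248 (*Col27a1*), chr1:24194995-24195024 (*Col9a1*) and chr4:121039466-121039495 (*Col9a2*, the last 3 shown on the plus strand):
Col6a4: ctgtgtgctaGGGGATTCCCaggctcacac
Col27a1: atctgggggtGGGATGTCCCcctcaggatg
Col9a1: ctggggtgggGGGGGTCTCCtcccctgtag
Col9a2: agatgcccccGGGACTTCCCagctggggcg
The *Col27a1* match read as the consensus only on the strand opposite to the one shown. The *Col6a4* match read as the consensus on both strands and began 67 bases before the RefSeq start. GENCODE M21 places the start of *Col6a4* 92 bases further upstream, so the match lay downstream of that start. The other 3 matches also lay downstream of the annotated gene starts, which are at 63214004 for *Col27a1*, 24177610 for *Col9a1* and 121039385 for *Col9a2*. A match is a string of letters and not a shown binding site.

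Levels between genes were compared in non-stimulated WT cells as RPM per kb of annotated exon. *Col11a1*, the fibrillar chain that helps to nucleate collagen fibrils and set their diameter (ENSMUSG00000027966, chromosome 3, 114030540 to 114220718 on GRCm38), stood first at 43.8 ± 2.85 RPM per kb (SD, n = 3). The next was *Col4a5*, a basement membrane chain, at 9.33 ± 2.57, and then *Col5a3* (8.45 ± 3.47), *Col18a1* (8.09 ± 3.47), *Col5a2* (7.86 ± 3.65) and *Col5a1* (7.20 ± 1.52), which did not differ from their neighbors in this order beyond their spread. The type V chains join types XI and I in mixed fibrils, and *Col18a1* is the basement membrane proteoglycan that yields endostatin. *Col8a1*, *Col4a1* and *Col16a1* followed at 5.14 ± 2.68, 4.77 ± 1.96 and 4.52 ± 0.55. Of type I collagen, the main fibrillar collagen of connective tissue, *Col1a1* stood at rank 13 of 44 at 2.37 ± 0.80 RPM per kb and *Col1a2* at rank 28 with 0.24 ± 0.20. *Col2a1*, the cartilage fibril chain, was at 0.09 ± 0.07. The lowest of the 34 genes was *Col6a4*, at 0.02 ± 0.01.

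**Figure D1:**
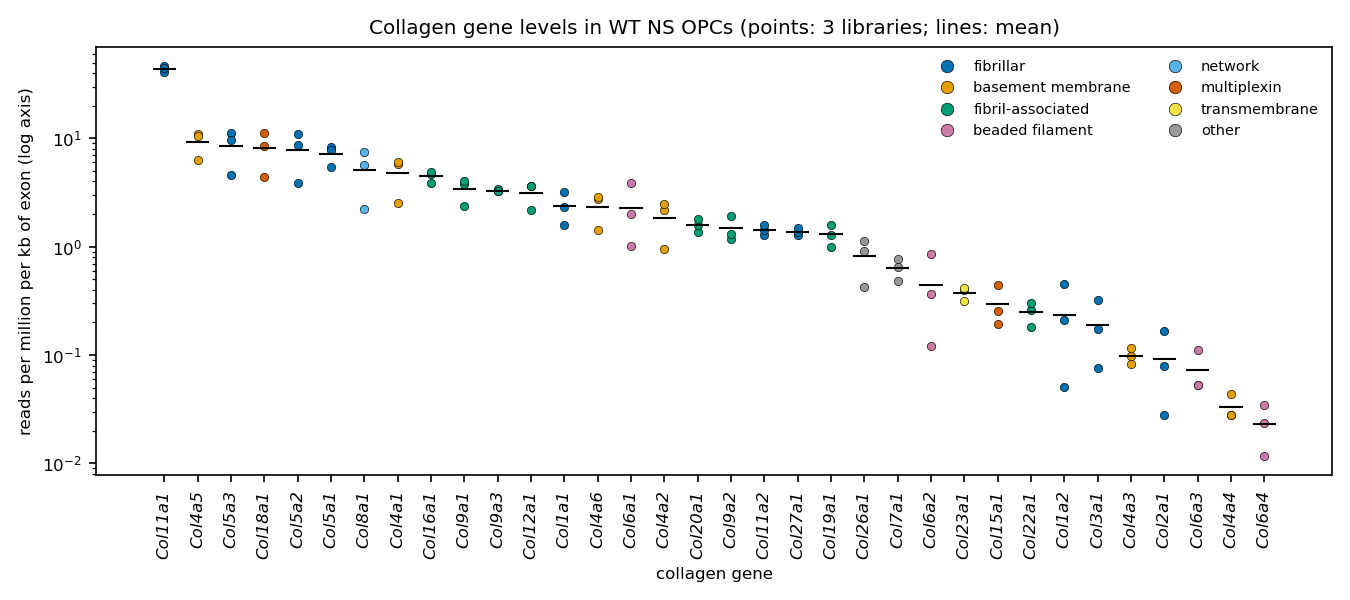
Level of the 34 collagen genes with a mean of at least 10 reads in WT NS libraries, as RPM per kb of annotated exon on a log axis. Points are the 3 libraries, lines their mean and colors the collagen class. *Col11a1* sits apart from the rest at 43.8, and the level falls to 0.02 for *Col6a4*.

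Chains of 1 trimer were compared within each library by their reads. *Col4a1* and *Col4a2*, which assemble 2 to 1 and are transcribed head to head from chromosome 8 with 22 bases of first exon in common, kept a ratio of 2.48 to 3.64 over the 12 libraries. *Col4a5* had 2.42 to 4.19 reads for each of *Col4a6*, its neighbor on chromosome X. The type VI chains *Col6a1* and *Col6a2* ranged from 2.39 to 5.11. *Col1a1* and *Col1a2* moved far more freely, from 1.89 in TNFR2-/- NS 5 to 24.4 in WT St 3, where *Col1a2* had 11 reads. None of these ratios says how much protein was made, and for *Col4a1* and *Col4a2* the use of strand in counting is not given in the sources used here.

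Summed over all 44 genes, collagens took 1195 ± 168 RPM in WT NS, 1501 ± 147 in WT St, 1050 ± 74.6 in TNFR2-/- NS and 1334 ± 86.8 in TNFR2-/- St (SD, n = 3 each). Each culture was higher after stimulation, by 1.14-fold to 1.42-fold with a median of 1.28, and *Col11a1* alone held 40.7% to 60.8% of the collagen reads of a library. Without it the median fold over cultures was 1.15 (1.02 to 1.26). These sums are descriptions and were not tested.

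**Figure D2:**
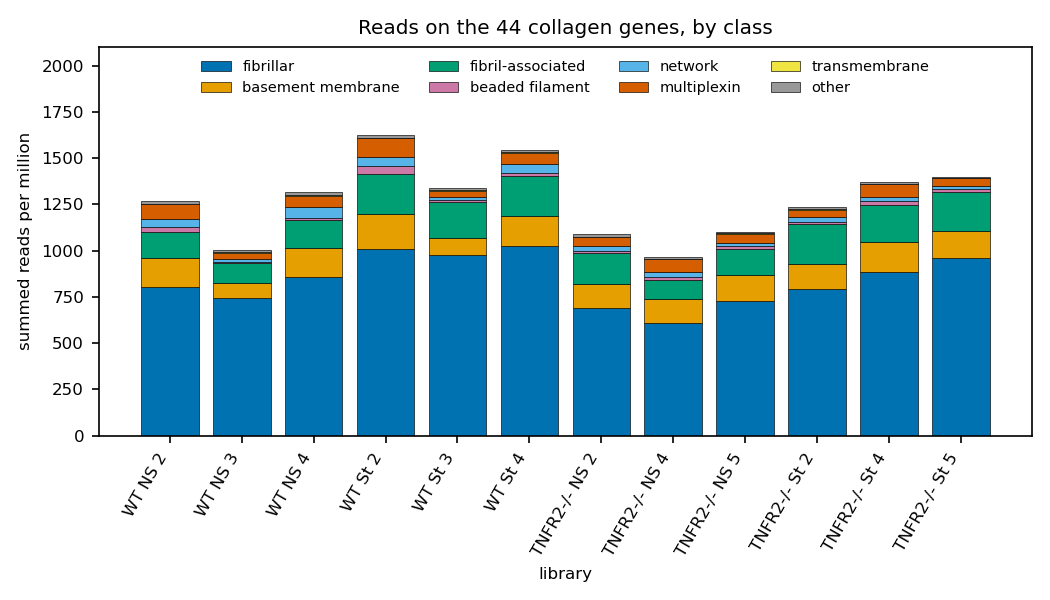
RPM summed over the 44 collagen genes in each of 12 libraries, stacked by collagen class. Fibrillar genes make up the largest block in every library, at 611 to 1026 RPM, and the bar of each culture is higher in St than in NS.

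Cytokine stimulation was compared with no stimulation in each genotype. *Col16a1* rose about 2-fold in WT and in TNFR2-/- cells and was the only collagen gene called, 1 of 39 tested in each, where the whole table had 7.53% and 10.1% of genes called (4.58% and 5.41% upward). *Col11a1* and *Col6a4* also passed the adjusted p in both genotypes, so that 3 of 39 collagen genes did, all upward, against 16.1% and 26% of all genes (7.7% and 9.62% upward). The median log2 fold change of the 39 genes was 0.10 in WT and -0.004 in TNFR2-/- cells, beside -0.05 and -0.11 over all genes tested. In WT 29 of 39 were higher and 10 lower, and in TNFR2-/- 18 were higher and 21 lower. Groups did not overlap for 6 genes higher and 1 lower in WT, where 37.7% of all genes were apart (13.7% higher and 24% lower), and for 5 higher and 0 lower in TNFR2-/-, against 37.3% (12.7% and 24.7%). The OPC markers summed to 8575 to 9953 RPM in NS and 7115 to 8194 in St libraries of both genotypes, and their part in these results was not tested.

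*Col16a1* encodes a fibril-associated collagen (ENSMUSG00000040690, chromosome 4, 130047840 to 130099283). It stood at 31.8, 26.3 and 33.4 RPM in WT NS cultures 2, 3 and 4 and at 73.2, 65.9 and 67.1 in the same cultures after stimulation. In TNFR2-/- cultures 2, 4 and 5 it went from 28.1, 27.6 and 40.2 to 52.7, 66.4 and 74.7 RPM. No St library overlapped with any NS library in either genotype, and each of the 6 cultures was higher by 1.86-fold to 2.50-fold. The log2 fold change was 1.16 ± 0.16 in WT (SE, limma adjusted p = 0.000614) and 1.01 ± 0.16 in TNFR2-/- (adjusted p = 0.0012). The difference between genotypes in this response was -0.15 ± 0.23 (interaction, adjusted p = 0.931), and leaving out any 1 library left both calls in place.

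*Col11a1* had the most reads of all collagens. It stood at 518, 587 and 571 RPM in WT NS and at 692, 813 and 762 in WT St, and at 442, 421 and 534 in TNFR2-/- NS and 575, 687 and 800 in TNFR2-/- St. The NS and St groups did not overlap in either genotype. The change was smaller than the threshold for a call, at 0.43 ± 0.12 in WT (limma adjusted p = 0.0388) and 0.55 ± 0.12 in TNFR2-/- (adjusted p = 0.00839), or 1.30-fold to 1.63-fold by culture. In WT it did not hold without any 1 of the 6 WT libraries (limma adjusted p 0.0505 to 0.131), nor without TNFR2-/- NS 2 or St 4 (0.0519 and 0.0546), whereas in TNFR2-/- it passed without each library in turn (at most 0.0325).

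*Col6a4*, an alternative chain of type VI collagen that can take the place of alpha 3, had the largest fold change with stimulation of the 34 genes. Its reads were few. There were 3, 8 and 6 in WT NS and 54, 47 and 45 in WT St, and 16, 9 and 6 in TNFR2-/- NS and 97, 70 and 48 in TNFR2-/- St. Every St library was above every NS library, and the fold by culture ran from 5.26 to 18.0, the last resting on 3 reads with an exact 95% interval of 5.83 to 89.8 that covers counting error only. On log2(FPKM + 0.5) the change was 0.84 ± 0.14 in WT (limma adjusted p = 0.00185) and 1.03 ± 0.14 in TNFR2-/- (adjusted p = 0.000345). The pseudocount shrank it, and voom gave 3.04 ± 0.45 (adjusted p = 0.00047) and 2.82 ± 0.39 (adjusted p = 0.000225). With that fit 3 of 34 collagen genes were called in WT and 2 of 34 in TNFR2-/-, against 10.7% and 14.7% of all genes. Even so *Col6a4* stayed at 1.5 to 3.23 RPM in St libraries. *Col6a4* lies on chromosome 9, 105989454 to 106096783, and shares exon bases with *Gm47575* and *Gm36993* on the opposite strand, which had 0 reads each. Of the other type VI chains, *Col6a1* passed the adjusted p in WT with the culture block (0.0239) under the fold threshold, and was called there by voom with the block, at 0.59 ± 0.11 (adjusted p = 0.000547). *Col6a3*, whose place the alpha 4 chain can take, had a fold of 0.62 to 2.21 over the cultures, and *Col6a1* of 0.89 to 1.70.

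*Col12a1*, a large fibril-associated collagen that links fibrils to other matrix, was higher in 6 of 6 cultures. It stood at 54.9, 33.1 and 54.8 RPM in WT NS and 93.9, 72.3 and 87.0 in WT St, and at 80.4, 34.2 and 26.5 in TNFR2-/- NS and 113, 88.2 and 58.5 in TNFR2-/- St. The cultures themselves differed as much as the conditions did in TNFR2-/- cells, where the groups overlapped. Without the pairing of cultures the change did not pass, at 0.84 ± 0.38 in WT (limma adjusted p = 0.179) and 0.98 ± 0.38 in TNFR2-/- (adjusted p = 0.0842). With culture as a block in the fit, the SE fell to 0.16 and *Col12a1* was called in both genotypes (adjusted p = 0.00901 and 0.00346). The blocked fit called 3 of 39 collagen genes in WT (*Col12a1*, *Col16a1* and *Col19a1*) and 3 of 39 in TNFR2-/- (*Col1a2*, *Col12a1* and *Col16a1*), against 8.79% and 11.3% of all genes. The interaction for *Col12a1* was 0.14 ± 0.54 (limma adjusted p = 0.981), an error too wide to show likeness.

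**Figure D3:**
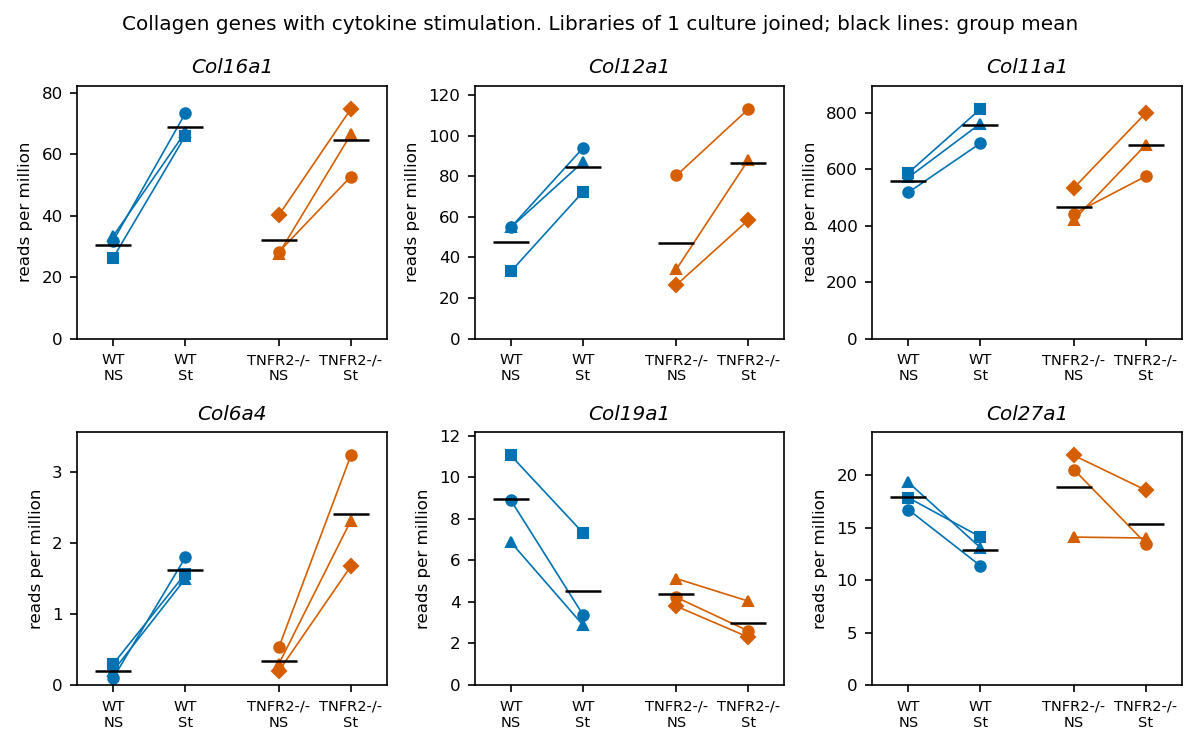
RPM in each library for 6 collagen genes, with the NS and St library of 1 culture joined by a line, WT in blue and TNFR2-/- in orange (circle culture 2, square 3, triangle 4, diamond 5), and group means as black lines. *Col16a1*, *Col12a1*, *Col11a1* and *Col6a4* are higher in St in all 6 cultures, while *Col19a1* and *Col27a1* are lower in all 6.

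*Col4a1* and *Col4a2* of the basement membrane, the chains found in every basement membrane, were also higher in 6 of 6 cultures, by 1.02-fold to 1.51-fold and by 1.05-fold to 1.46-fold. Neither passed without the block (limma adjusted p 0.496 to 0.663), and with it *Col4a1* passed the adjusted p in both genotypes (0.0327 and 0.0233) at 0.36 and 0.37 on the log2 scale. The 7 genes higher in every culture were *Col4a1*, *Col4a2*, *Col6a4*, *Col11a1*, *Col12a1*, *Col16a1* and *Col22a1*, 7 of 34 against 14.5% of the 15436 genes with a mean of at least 10 reads. Lower in every culture were 3 of 34, *Col19a1*, *Col26a1* and *Col27a1*, against 34% of those genes. *Col4a1*, *Col4a2*, *Col6a4* and *Col26a1*, together with *Col2a1*, *Col3a1*, *Col8a1* and *Col18a1*, were singled out after their values were seen.

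*Col19a1*, a fibril-associated collagen that in brain is made mainly by neurons, had 8.89, 11 and 6.87 RPM in WT NS and 3.39, 7.33 and 2.89 in WT St. In TNFR2-/- cells it had 4.22, 5.12 and 3.79 in NS and 2.60, 4.03 and 2.3 in St. The WT groups overlapped only through culture 3, which was the highest in each. The change was -0.89 ± 0.28 in WT (limma adjusted p = 0.053) and -0.44 ± 0.28 in TNFR2-/- (adjusted p = 0.281). With culture as a block the WT change was called (adjusted p = 0.00292), and voom called it as well, at -1.07 ± 0.30 (adjusted p = 0.0281). In TNFR2-/- cells the blocked value passed the adjusted p (0.0339) but stayed under the fold threshold, and the interaction was 0.45 ± 0.39 (adjusted p = 0.842). The 5 neuron markers summed to 106 to 118 RPM in WT NS and 429 to 458 in WT St, and none was at 0. That rise lay in *Tubb3*, at 43.6 to 53.9 RPM in WT NS and 384 to 410 in WT St (3.06 ± 0.18). *Snap25* fell, at -0.97 ± 0.23, so the markers did not rise together. Their part in the result was not tested.

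*Col27a1*, a fibrillar collagen known from cartilage, was lower in 6 of 6 cultures, at 0.66-fold to 0.99-fold. Its log2 fold change was -0.46 ± 0.17 in WT (limma adjusted p = 0.0984, and 0.0198 with culture as a block) and -0.27 ± 0.17 in TNFR2-/- (adjusted p = 0.276). *Col1a2* was lower in 5 of 6 cultures and higher in WT culture 2. In TNFR2-/- it had 29, 21 and 57 reads in NS and 10, 16 and 27 in St, with a change of -0.89 ± 0.99 (limma adjusted p = 0.564) that was called only with the block (adjusted p = 0.0459). *Col26a1* was lower in every culture by little (0.70-fold to 0.92-fold), and passed the adjusted p with the block (0.0333 in WT and 0.00539 in TNFR2-/-) under the fold threshold.

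Most collagens of OPCs did not pass. Among the highest, *Col4a5* had folds of 0.94 to 1.21 over the 6 cultures, *Col5a1* of 0.87 to 1.07, *Col5a2* of 0.88 to 1.21 and *Col5a3* of 0.72 to 1.07. *Col7a1* had folds of 0.89 to 1.06. The type IX chains, which decorate fibrils of types II and XI, ran from 0.75 to 1.34 for *Col9a1*, 0.87 to 1.57 for *Col9a2* and 0.91 to 1.34 for *Col9a3*. *Col11a2*, a partner chain of *Col11a1*, was higher in 3 cultures and lower in 3, at 0.70 to 1.32. Of fibrillar genes 6 of 10 tested were higher in WT and 1 of 10 in TNFR2-/-, with medians of 0.02 and -0.22. Those counts include values near 0, such as *Col1a1*, *Col5a1* and *Col5a3* in WT (0.003, 0.03 and 0.04). In TNFR2-/- *Col3a1* and *Col5a2* were at -0.004 and -0.02, and no fibrillar gene was called for the interaction. Of basement membrane genes 5 of 6 and 6 of 6 were higher, with medians of 0.19 and 0.12, and of fibril-associated genes 7 of 8 and 6 of 8, with medians of 0.17 and 0.06.

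**Figure D4:**
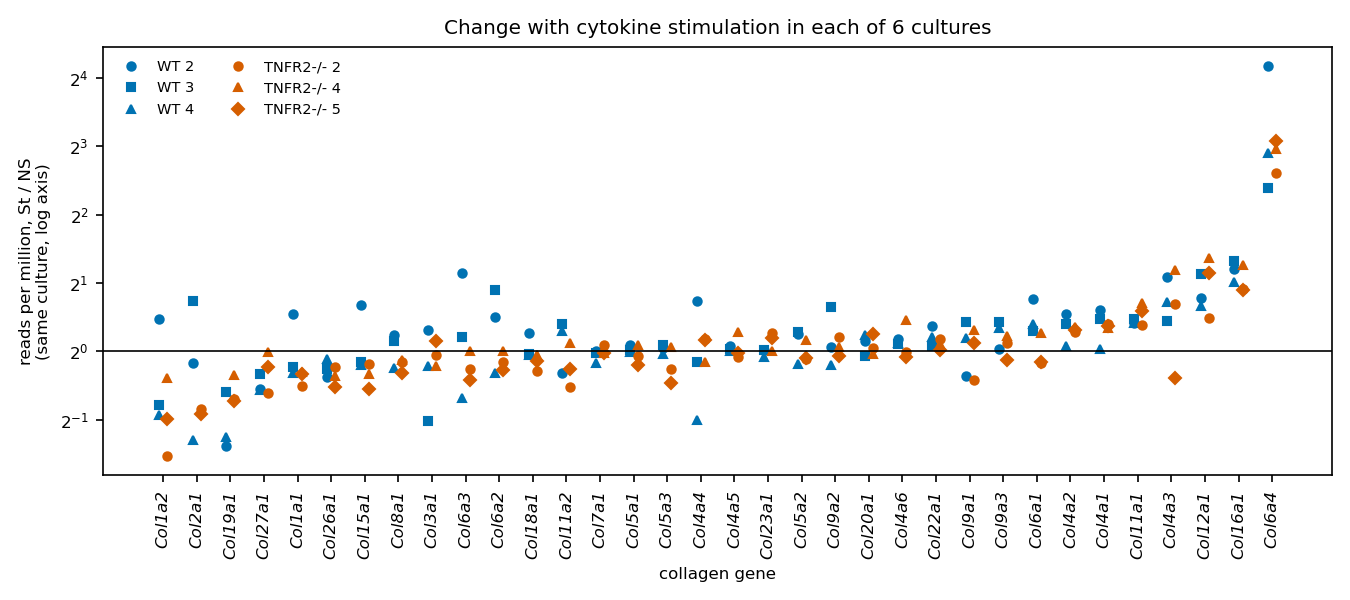
Ratio of RPM in St to that in NS of the same culture, on a log axis, for the 34 collagen genes with a mean of at least 10 reads, ordered by the median ratio. Each point is 1 of 6 cultures, WT in blue and TNFR2-/- in orange. Most genes scatter around 1, *Col16a1* sits between 1.86 and 2.50 and *Col6a4* between 5.26 and 18.0.

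The interaction of genotype and stimulation asked whether the response of a collagen differed between WT and TNFR2-/- cells. No collagen gene was called of 39, where 1 of 18081 genes was (0.00553%). An unadjusted p under 0.05 was found for 1 gene, *Col28a1*, at -1.80 ± 0.63 (limma adjusted p = 0.548), which had 1 to 9 reads a library. The voom fit called none of 34 either, and 0% of all genes, and with the culture block it again called none of 34, against 1.24% of all genes. *Col6a1* passed the adjusted p there (0.048) under the fold threshold. The fold of *Col6a1* was 1.70, 1.23 and 1.32 in WT cultures 2, 3 and 4 and 0.89, 1.21 and 0.90 in TNFR2-/- cultures 2, 4 and 5, so every WT culture was above every TNFR2-/- culture, by as little as 1.23 against 1.21.

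Genotypes were then compared without stimulation, to ask which collagens differed between libraries labeled WT and labeled TNFR2-/-. *Col7a1*, the collagen of anchoring fibrils (ENSMUSG00000025650, chromosome 9, 108953586 to 108984875), was the only collagen gene called, and it was lower in cells labeled TNFR2-/-. This was 1 of 39 tested, against 2.9% of all genes called (1.28% downward), and no other collagen gene passed the adjusted p, which 10.9% of all genes did. Groups did not overlap for 3 collagen genes, all lower in TNFR2-/-, namely *Col1a1*, *Col7a1* and *Col19a1*, against 34.2% of all genes (19.9% higher and 14.3% lower). The median of the 39 genes was -0.02 beside 0.04 over all genes tested, with 18 higher and 21 lower.

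*Col7a1* stood at 4.96, 7.92 and 6.67 RPM in WT NS and at 3.36, 4.26 and 2.83 in TNFR2-/- NS. All TNFR2-/- libraries were below all WT libraries. The log2 fold change was -0.72 ± 0.19 (limma adjusted p = 0.0431), and voom gave -0.89 ± 0.24 (adjusted p = 0.0317). The call was lost without WT NS 3 (adjusted p = 0.156), WT NS 4 (0.123), TNFR2-/- NS 2 (0.101), TNFR2-/- NS 5 (0.137), WT St 4 (0.0648) or TNFR2-/- St 2 (0.0593). In stimulated cells of the same cultures the order was the same, with 4.99, 7.76 and 5.95 RPM in WT St and 3.56, 4.20 and 2.79 in TNFR2-/- St, and a change of -0.65 ± 0.19 that did not pass (limma adjusted p = 0.0716). The cultures are shared, so the St values are not a second sample of animals.

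*Col1a1*, a chain of type I collagen, had 20.9, 10.5 and 15.3 RPM in WT NS and 7.67, 7.14 and 3.56 in libraries labeled TNFR2-/- NS, at -1.35 ± 0.47 (limma adjusted p = 0.0896). After stimulation it had 30.6, 8.93 and 12.3 RPM in WT and 5.40, 5.79 and 2.82 in TNFR2-/- cells, at -1.72 ± 0.47 (adjusted p = 0.0589). Both pairs of groups were apart, and neither difference passed. Its partner *Col1a2* spread from 0.63 to 5.59 RPM in WT NS and from 0.69 to 1.88 in TNFR2-/- NS, with overlap, as did *Col3a1*, the chain of type III collagen, from 0.74 to 3.16 and from 0.46 to 0.76. For both genes WT culture 2 held the highest value in NS and in St. Without WT St 2 the St difference of *Col1a1* was -1.21 (limma adjusted p = 0.123).

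*Col19a1* was lower in TNFR2-/- NS than in WT NS in every library, at -0.85 ± 0.28 (limma adjusted p = 0.07), and voom called it at -1.004 ± 0.30 (adjusted p = 0.0438), making 2 of 34 collagen genes against 5.25% of all genes. *Col8a1*, a network collagen of vessels and cornea, was at 44.3, 17.6 and 58.9 RPM in WT NS and 31.0, 26.1 and 17.2 in TNFR2-/- NS, and *Col4a1* at 43.1, 18.7 and 44.9 and at 25.0, 26.7 and 28.0. In both genes WT cultures 2 and 4 lay above and WT culture 3 below most TNFR2-/- libraries, with overlap between the groups, and neither difference passed (limma adjusted p = 0.482 and 0.595). Of 3 chains that were higher in all 6 cultures after stimulation, the genotype difference at rest did not pass, at 0.05 ± 0.16 for *Col16a1*, -0.14 ± 0.38 for *Col12a1* and -0.27 ± 0.12 for *Col11a1* (limma adjusted p = 0.867, 0.84 and 0.182).

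**Figure D5:**
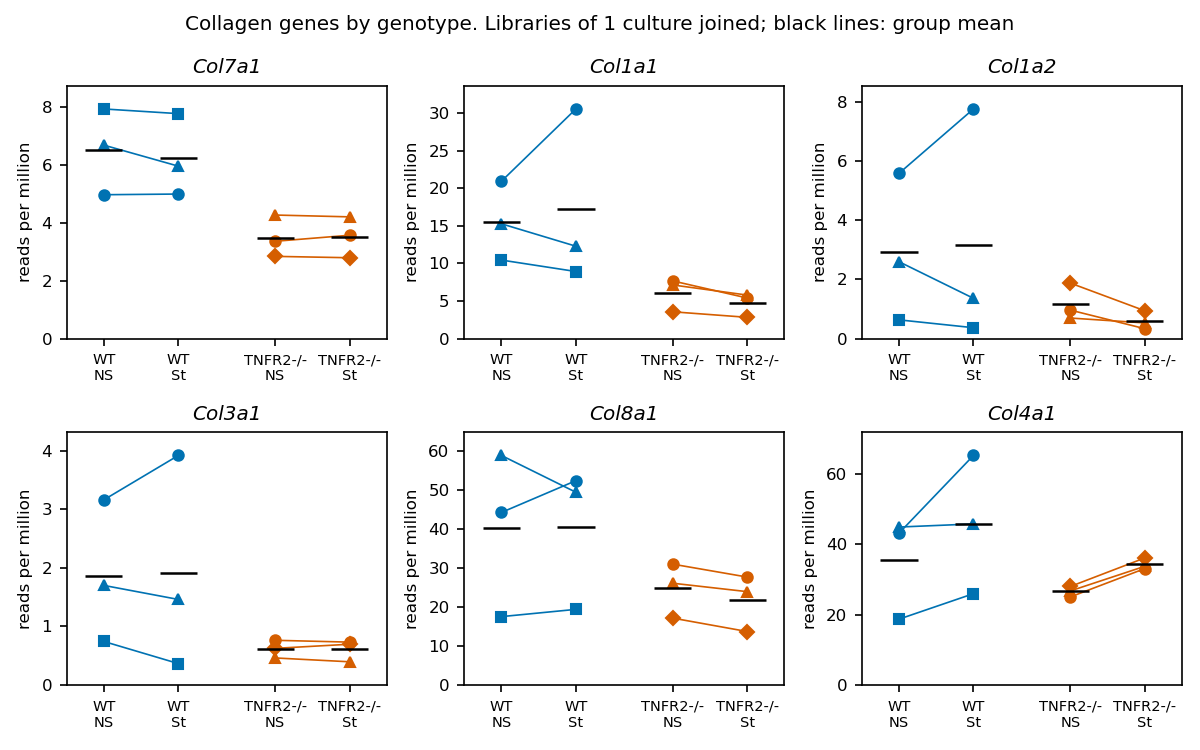
RPM in each library for 6 collagen genes that were lower on average in TNFR2-/- cells, drawn as in the plot of stimulated genes. *Col7a1* and *Col1a1* of all TNFR2-/- libraries lie below all WT libraries of the same condition, whereas *Col8a1* and *Col4a1* overlap, with WT culture 3 (squares) below WT cultures 2 and 4.

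In stimulated cells no collagen gene was called between genotypes of 39 tested by limma, against 1.8% of all genes, none passed the adjusted p, which 5.45% of all genes did, and 2 had an unadjusted p under 0.05 (*Col1a1* and *Col7a1*). The voom fit with 10 reads called none of 34 either, against 3.72% of all genes. The median of the 39 genes was -0.19 beside -0.003 over all genes, with 13 higher and 26 lower in libraries labeled TNFR2-/-. Groups did not overlap for 1 gene higher, the transmembrane collagen *Col23a1*, and for 2 lower, against 32.7% of all genes (15.4% higher and 17.3% lower). *Col23a1* had 1.83, 2.3 and 2.23 RPM in WT St and 2.43, 2.41 and 3.87 in TNFR2-/- St, at 0.42 ± 0.22 (limma adjusted p = 0.25). Since the genotypes share their cultures across conditions, this comparison repeats much of the one at rest.

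Markers of other cells were compared between genotypes. The 6 astrocyte markers summed to 791 to 943 RPM in WT NS and 1217 to 2523 in TNFR2-/- NS, and to 790 to 903 in WT St and 1325 to 2503 in TNFR2-/- St. All 6 were higher on average in both comparisons, 1 of 6 was called in each, and none was at 0. TNFR2-/- culture 5 was the highest, with 10491 and 10010 reads of *Gfap* against 251 to 1926 in the other cultures. The 10 mural markers summed to 430 to 1369 RPM in WT NS and 247 to 864 in TNFR2-/- NS, and to 534 to 1239 and 180 to 741 in St, and none of the 9 that passed the filter was called between genotypes. *Acta2* had 242 to 850 RPM in WT NS and 99.9 to 531 in TNFR2-/- NS, and *Tagln* 157 to 476 and 97.5 to 267. On average *Notch3* went the other way, at 29.5 to 49.8 and 46.4 to 63.3, as did *Rgs5*, at 0.26 to 0.60 and 0.53 to 1.22. The 8 fibroblast markers summed to 13.6 to 23.1 RPM in all libraries. The 6 mature oligodendrocyte markers summed to 532 to 1020 RPM in WT NS and 720 to 1298 in TNFR2-/- NS, and to 576 to 1031 and 563 to 1098 in St. All 6 were higher on average in TNFR2-/- NS (median log2 fold change 0.44) and 4 of 6 in TNFR2-/- St, and none was called. The part of these cells in the collagen differences was not tested. In TNFR2-/- NS cultures 2, 4 and 5 *Col7a1* stood at 3.36, 4.26 and 2.83 RPM, with 889, 1072 and 10491 reads of *Gfap*. In WT NS cultures 2, 3 and 4 *Col7a1* stood at 4.96, 7.92 and 6.67 RPM, with 532, 251 and 559 reads of *Gfap*.

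Genes that make, process and bind collagens were described from a list of 44, of which 42 passed the filter. With stimulation 5 were called in WT and 5 in TNFR2-/- cells, 4 up and 1 down in each, against 7.53% and 10.1% of all genes. *Plod3*, which hydroxylates and glycosylates collagen lysines, rose by 0.95 ± 0.10 in WT and 0.83 ± 0.10 in TNFR2-/- (limma adjusted p = 6.86e-05 and 0.000134). It had 3442, 3508 and 4239 reads in WT NS and 6605, 7893 and 7951 in WT St. *Adamts3*, a protease that removes procollagen amino propeptides, rose by 1.86 ± 0.13 and 2.31 ± 0.13 (limma adjusted p = 3.86e-06 and 6.09e-07), from 193, 208 and 172 reads to 790, 859 and 706 in WT. *Loxl4*, of the lysyl oxidases that crosslink collagen, rose in both genotypes, from 8 to 18 reads in NS to 23 to 44 in St libraries. The collagen-binding integrin chain *Itga10* was called in WT alone (0.77 ± 0.18, limma adjusted p = 0.0157) and the propeptide protease *Adamts2* in TNFR2-/- alone (1.201 ± 0.38, adjusted p = 0.0415). The interaction did not pass for either (adjusted p = 0.902 and 0.878), and both calls were lost without 1 or more single libraries.

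*Adgrg1*, an adhesion receptor that binds type III collagen, fell in both genotypes, by 0.92 on the log2 scale in WT and 0.97 in TNFR2-/- (SE 0.09 each, limma adjusted p = 3.96e-05 and 2.05e-05), from 6802 to 8642 reads in NS to 3587 to 4348 in St. Below the fold threshold, the prolyl hydroxylase genes *P4ha1* and *P3h1* passed the adjusted p downward in both genotypes (-0.28 and -0.34 in WT, -0.47 and -0.57 in TNFR2-/-), as did the collagen galactosyltransferase *Colgalt2* (-0.55 and -0.51). The median of the 42 genes was -0.05 in WT and -0.16 in TNFR2-/-. Between genotypes none of the 42 was called at rest or after stimulation, and *Plod1* and *Colgalt2* passed the adjusted p in both, higher in TNFR2-/- (0.49 and 0.32 at rest, 0.36 and 0.36 stimulated).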

How the data were processed

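RNA was sequenced in 12 libraries from 6 OPC cultures, each with an NS and an St library. The authors deposited FPKM values from EdgeR, 1 table for NS and 1 for St, made after STAR alignment to GRCm38 of reads cleaned by Trim Galore, per their methods. The strand setting is not given in the sources used here. Of 45792 entries, 229 that shared 99 symbols were left out. Library totals were estimated from the FPKM values themselves. With these totals, whole read counts were recovered for 26636 of 26636 genes above 0 in at least 2 libraries (tolerance 0.02). Group means over all 12 libraries were fitted with limma 3.58.1 (R 4.3.3) on log2(FPKM + 0.5) with trended variance, and the fit was tested on simulated data. Figures used matplotlib 3.10.9. Deviations from group means over 13554 genes correlated at 0.338 to 0.649 for the 6 NS and St pairs of the same culture number and at -0.455 to 0.088 for the 12 others, so numbers paired cultures within a genotype. Named by rule were genes called in any comparison, the 3 with the largest change in each direction among those with a mean of at least 1 FPKM, the 5 with the most reads and their partner chains. The members and lists were chosen with earlier results of these data known. Alternatives were other scalings, filters, pseudocounts, blocks, left-out libraries and voom.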

Additional observations from a re-analysis of the deposited data

How the results depend on the processing

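The collagen genes called at rest between genotypes (1) numbered 0 with no filter, quantile normalization or only the compared libraries, 2 with either voom fit, and 0 to 2 with 1 library left out. With stimulation in WT (1) they numbered 2 with a pseudocount or a filter of 1 FPKM, a call at 10 reads, RPM or voom, 3 with only the compared libraries, with adjusted p alone or with voom at 10 reads, and 1 to 2 with 1 library left out. In TNFR2-/- (1) they numbered 2 with a call at 10 reads, median-of-ratios scaling or voom at 10 reads, 3 with adjusted p alone, and 1 to 2 with 1 left out. Between stimulated genotypes (0) they numbered 1 with a filter of 1 FPKM or RPM, and 0 to 1 with 1 left out. Of the collagen-related genes, 1 was called at rest (0 before) with a pseudocount of 0.1 FPKM or quantile normalization and 3 with adjusted p alone, and that last rule gave 8 in WT (5), 11 in TNFR2-/- (5) and 2 between stimulated genotypes (0), where voom at 10 reads gave 1. The median fold of summed collagens was 1.15 without *Col11a1*. The cause of these moves was not tested.

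With a replicate block, culture numbers paired NS with St and gave 3 of 39 collagen genes in each genotype, against 8.79% (WT) and 11.3% (TNFR2-/-) of all genes. When voom at 10 reads was blocked there were 5 of 34 in WT and 3 of 34 in TNFR2-/-, against 13.3% and 17.5%. The replicate block gave 8 collagen-related genes in TNFR2-/-. Numbers did not pair genotypes (r from -0.0553 to 0.204 for 4 same-number pairs, -0.21 to 0.177 for 14 others). In a block by number, WT culture 3 and TNFR2-/- culture 5 entered the genotype comparisons only through their difference between NS and St. That block gave 5 of 39 collagen genes at rest and 5 after stimulation, against 2.42% and 2.39% of all genes (7 and 9 of 34 with voom, against 4.66% and 4.82%). Without voom the same 5 were called in both, *Col1a1*, *Col1a2*, *Col4a1*, *Col4a2* and *Col8a1*, all lower in TNFR2-/-. Of collagen-related genes it gave 3 and 6 (4 and 7 with voom).

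Leaving out 1 library turned the direction in 107 of 195 collagen values over all comparisons, among them *Col12a1* (up to 0.18) and *Col16a1* (down to -0.12) between genotypes at rest and *Col6a1* in WT (down to -0.14), and in 0 of the 7 with an adjusted p of at most 0.05. For 32 single-gene values every alternative was run, and 7 of the results reversed. With 1 library left out, the WT change ranged from -0.0454 (without WT NS 3) to 0.72 for *Col4a1* and from -0.0640 (without WT NS 3) to 0.61 for *Col4a2*. For *Col26a1* it ranged from -0.66 to 0.17 in WT (0.04 without WT NS 2, 0.17 without WT St 3), from -0.90 to 0.21 in TNFR2-/- (0.11 without NS 2, 0.21 without St 5) and from -0.98 to 0.0014 between genotypes at rest (highest without TNFR2-/- NS 5). Of the other results for those 32 values 713 kept direction and side of the threshold, 56 newly passed and 20 no longer passed. Genes under 10 reads were limited by depth.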
